A study of Caenorhabditis elegans with 8 samples.

Results

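The 10 genes described here encode enzymes of glycolysis in the nematode Caenorhabditis elegans. They were chosen by name as hxk-1, gpi-1, pfk-1.1, aldo-1, aldo-2, tpi-1, gpd-2, gpd-3, pgk-1 and enol-1, and are 10 of the 46748 genes in the deposited count table. For 9 of them the row carries the gene symbol, and hxk-1 was found under its sequence name F14B4.2. The RNA came from neurons sorted by fluorescence from untreated worms of strain OH10689. The strain carries otIs355 on chromosome IV, where rab-3(prom1), taken from a synaptic vesicle gene active across neurons, makes a nuclear TagRFP. All 8 libraries share this strain and transgene. RNA of 4 samples was split between the SoLo Ovation kit and SMARTseq V4, where cDNA synthesis starts from poly(A) tails, followed by Nextera XT. This gave 4 SoLo libraries and 4 SMARTseq libraries, numbered 1 to 4 in each kit, and the question is how each kit measures the same RNA. The sources used here state neither worm age nor whether separate cultures or sorts gave the RNA samples, so p-values cover the spread between these samples, which may be technical.

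Glycolysis turns glucose into pyruvate in the cytosol and yields ATP and NADH without oxygen. Hexokinase and phosphofructokinase spend ATP on the sugar, aldolase splits it, and the later enzymes from glyceraldehyde-3-phosphate dehydrogenase onward recover ATP. In C. elegans neurons the phosphofructokinase PFK-1.1 gathers with other glycolytic enzymes near synapses under energy stress, and this is needed for sustained synaptic vesicle recycling.

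SoLo libraries held 2354681 to 3454199 counts and SMARTseq libraries 4510927 to 7099497. RNA sample 1 stood apart from the others in both kits. Pan-neuronal markers, 12 in number and led by egl-21, summed to 18877 CPM (counts per 1000000, scaled by TMM) in SoLo library 1. The sum was 13579 to 13831 in SoLo libraries 2 to 4. In SMARTseq library 1 it was 23423 CPM, against 16821 to 17807 in SMARTseq libraries 2 to 4. The median marker of this list hardly differed between RNA sample 1 and the mean of RNA samples 2 to 4 (log2 ratio -0.012 in SoLo and 0.007 in SMARTseq). Markers of other cell types were present, and no marker of any list was at 0 in all libraries. The 12 body wall muscle markers, led by act-4, summed to 7433 to 9217 CPM in SoLo and 13836 to 18668 in SMARTseq. Sums for hypodermis (8 markers) were 109 to 346 CPM in SoLo and 312 to 2826 in SMARTseq, for germline (8) 175 to 306 and 143 to 350.1, for intestine (10) 302 to 510.2 and 133 to 245, for pharyngeal muscle (5) 115 to 226 and 26.2 to 98.2, and for glia (6) 18.2 to 22.2 and 118 to 178. Of the tested markers, SoLo was called higher and lower for 7 and 2 of 12 pan-neuronal, 6 and 3 of 12 body wall muscle, 1 and 3 of 7 hypodermis, 3 and 1 of 7 germline, 5 and 0 of 7 intestine, 3 and 1 of 5 pharyngeal muscle and 0 and 2 of 3 glia genes. Over all tested genes, 20.0% were called higher in SoLo and 27.6% lower. The part of these cell types in the values of the glycolysis genes was not tested.

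Between the kits, the glycolysis genes did not move as a block. With SoLo over SMARTseq, hexokinase hxk-1 was higher, gpi-1, both aldolases and both glyceraldehyde-3-phosphate dehydrogenases were lower, and pfk-1.1, tpi-1, pgk-1 and enol-1 did not pass the test. All 10 genes passed the filter on low counts. In edgeR's quasi-likelihood test with Benjamini-Hochberg adjustment, 1 was called higher (20.0% of all 11378 tested genes were) and 5 lower (27.6% were). Thus 6 of 10 were called in either direction, against 47.6% of all tested genes. The CPM ranges of the kits did not overlap for 5 of the 10, against 46.2% of all tested genes. The median log2 fold change was -0.35 over the 10 genes and 0.01 over all tested genes. Standard errors follow each log2 fold change below, with n = 4 libraries per kit.

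**Figure D1:**
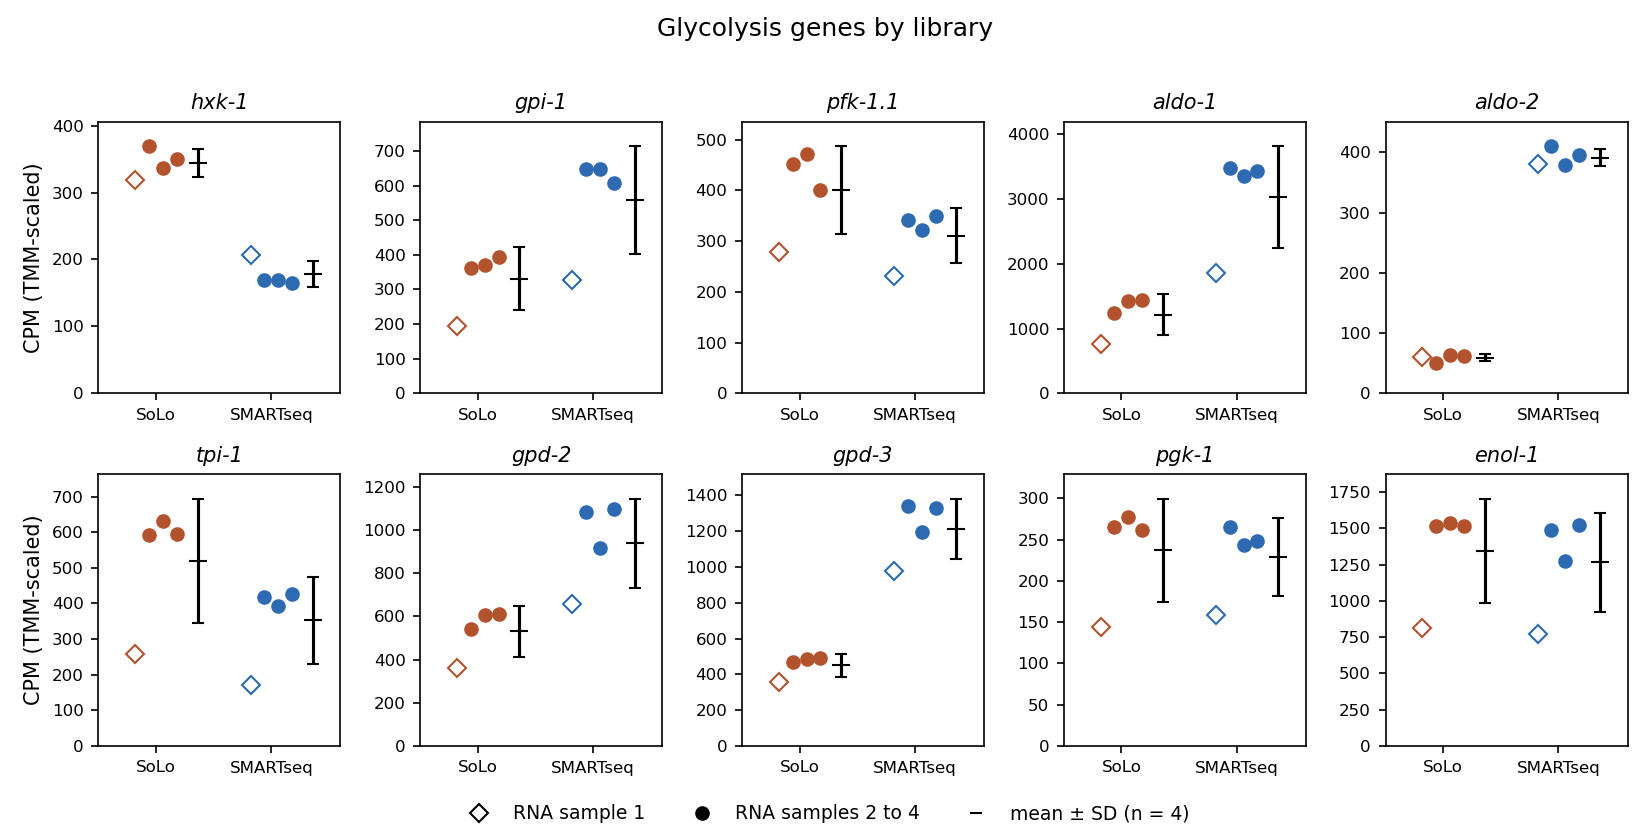
TMM-scaled CPM (y axis, from 0) of each glycolysis gene in the SoLo libraries (left in each panel) and the SMARTseq libraries (right), 1 point per library, with the mean and SD of 4 libraries in black. Open diamonds are RNA sample 1, which lies below the other 3 in both kits for 8 genes, such as tpi-1 with 259 against 591 to 631 CPM in SoLo, and not for hxk-1 and aldo-2.

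The first steps prepare the sugar. Hexokinase, which phosphorylates glucose, had with hxk-1 319, 369, 337 and 350.4 CPM in SoLo libraries 1 to 4, against 207, 169.9, 169.9 and 165 CPM in SMARTseq libraries 1 to 4. All SoLo values lay above all SMARTseq values, a 1.93-fold difference (log2 fold change 0.95 ± 0.13, edgeR adjusted p = 0.000317). The gene lies at chromosome I 9271479 to 9278689 on the minus strand of WBcel235. The glucose-6-phosphate isomerase gene gpi-1 (chromosome I 13576148 to 13581611, plus strand) had 195, 362, 371 and 394 CPM in SoLo, against 327, 648, 649 and 608 CPM in SMARTseq. The kits overlapped through RNA sample 1, while within each of the 4 RNA samples SoLo was lower. The log2 difference for gpi-1, -0.76 ± 0.28, was called narrowly (edgeR adjusted p = 0.0478). The call of gpi-1 was lost without any 1 of SoLo libraries 1 to 4 or SMARTseq libraries 2 to 4 (log2 fold change -0.53 to -0.81, edgeR adjusted p 0.0749 to 0.101). With the RNA samples as blocks the adjusted p of gpi-1 was 7.22e-06.

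Phosphofructokinase commits the sugar to glycolysis. Its gene pfk-1.1 (chromosome X 2940872 to 2945485, plus strand) had 278, 452, 471 and 400.1 CPM in SoLo, against 231, 342, 322 and 349 CPM in SMARTseq. SoLo was higher in 4 of 4 RNA samples, by 0.20 to 0.55 on the log2 scale, although the ranges overlapped. The log2 fold change was 0.36 ± 0.20 and not called (edgeR adjusted p = 0.169). It was called with the RNA samples as blocks (0.36, adjusted p = 0.00512) and without SoLo library 1 (0.54, adjusted p = 0.0273).

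The aldolases, which split fructose-1,6-bisphosphate, were both lower in SoLo. For aldo-2 (chromosome III 5874673 to 5876625, minus strand) the SoLo libraries had 60.4, 50.3, 62.8 and 61.5 CPM, against 381, 410.0, 379 and 396 CPM in SMARTseq. SoLo was 6.66-fold below SMARTseq (log2 fold change -2.74 ± 0.14, edgeR adjusted p = 8.26e-07), and the spread within each kit was small beside it. The second aldolase gene, aldo-1 (chromosome III 13563346 to 13564937, minus strand), had 757, 1238, 1419 and 1438 CPM in SoLo, against 1864, 3479.7, 3350.4 and 3439 CPM in SMARTseq. The kits did not overlap, and aldo-1 was 2.5-fold lower in SoLo (log2 fold change -1.32 ± 0.26, edgeR adjusted p = 0.00223). Without strand information, reads of overlapping genes cannot be told apart. Of the aldo-2 exon bases 2.5% lie under F01F1.3 on the opposite strand, and none of the aldo-1 exon bases lie under another gene.

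Triose-phosphate isomerase, which interconverts the products of that split, is encoded by tpi-1 (chromosome II 12036835 to 12039139, minus strand). It had 259, 591, 631 and 595 CPM in SoLo, against 171, 417, 394 and 427 CPM in SMARTseq. In 4 of 4 RNA samples SoLo was higher, by 0.48 to 0.68 on the log2 scale, while the ranges overlapped through RNA sample 1. The log2 fold change of tpi-1 was 0.56 ± 0.34 and not called (edgeR adjusted p = 0.21). It was called with the RNA samples as blocks (0.57, adjusted p = 8.74e-05) and without SoLo library 1 (0.82, adjusted p = 0.0396).

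Glyceraldehyde-3-phosphate dehydrogenase makes the NADH of glycolysis. Its genes gpd-2 (chromosome X 3113443 to 3114689) and gpd-3 (chromosome X 3112091 to 3113341) lie in tandem on the minus strand, 101 bases apart, and both have 1023 coding bases. Of the gpd-2 exon bases 1.9% also belong to mai-1 on the same strand. They are known as near-identical copies, and no source used here gives the treatment of reads with several alignments, so how reads were divided between them is uncertain. The SoLo libraries had 356, 471, 488 and 491 CPM of gpd-3, against 977, 1339, 1198 and 1329 CPM in SMARTseq. SoLo was below SMARTseq throughout, 2.68-fold (log2 fold change -1.42 ± 0.16, edgeR adjusted p = 7.76e-05). The values of gpd-2 were 359, 543, 607 and 612 CPM in SoLo, against 657, 1082, 918 and 1098 CPM in SMARTseq. Here too the kits did not overlap, with gpd-2 1.77-fold lower in SoLo (log2 fold change -0.82 ± 0.22, edgeR adjusted p = 0.012).

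The genes of the last steps among the 10 were not called between the kits. Phosphoglycerate kinase, which recovers ATP, is encoded by pgk-1 (chromosome I 3867541 to 3869109, plus strand), with 144, 265, 277 and 262 CPM in SoLo, against 159, 265, 244 and 248 CPM in SMARTseq. The difference for pgk-1 on the log2 scale was 0.05 ± 0.24 (edgeR adjusted p = 0.881), and SoLo was higher in 2 of 4 RNA samples. Enolase, encoded by enol-1 (chromosome II 8930997 to 8933799, plus strand), had 810.4, 1515, 1540.4 and 1517 CPM in SoLo, against 774, 1488, 1278 and 1521 CPM in SMARTseq. For enol-1 the log2 fold change was 0.09 ± 0.26 (edgeR adjusted p = 0.804). Both genes differed by less than their standard error. Without SMARTseq library 1 the sign of both turned, to -0.12 for pgk-1 and -0.12 for enol-1, neither called.

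**Figure D2:**
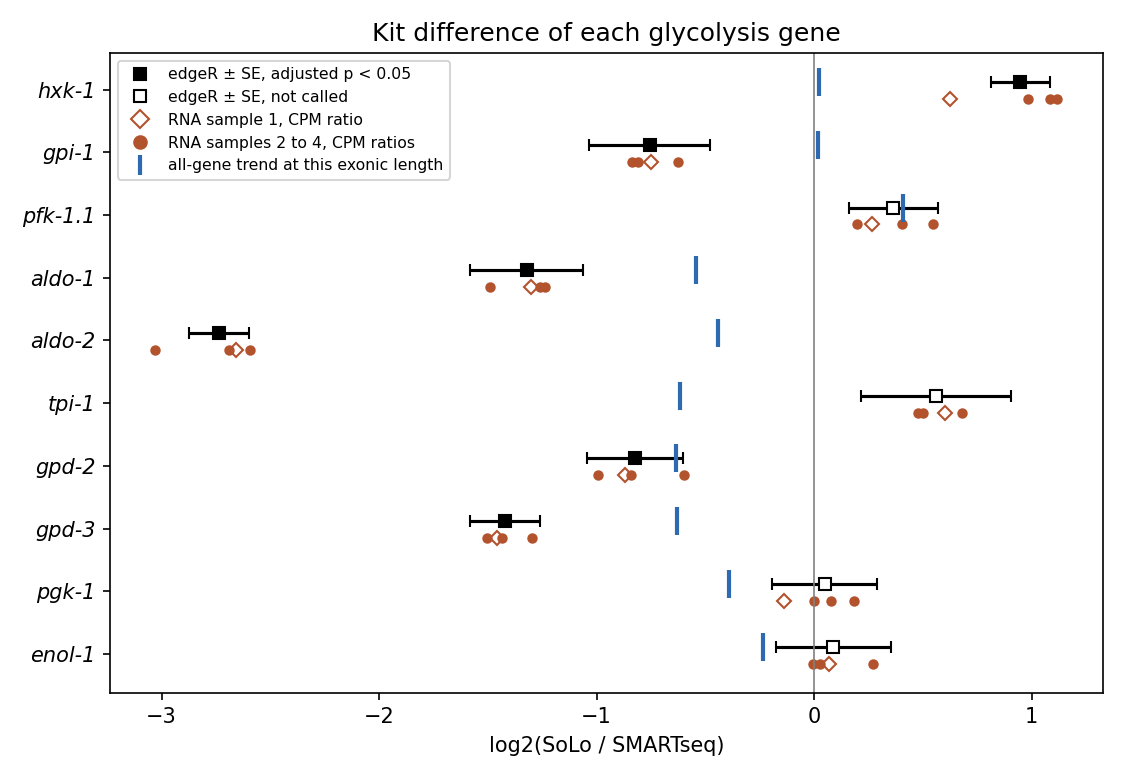
Log2 of SoLo over SMARTseq (x axis) for each glycolysis gene in pathway order from the top. Squares are edgeR estimates with standard errors, filled where called, orange symbols the CPM ratio within each RNA sample, and blue bars the trend of all tested genes at the same exonic length. The estimates run from -2.74 for aldo-2 to 0.95 for hxk-1.

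Taking the RNA samples as blocks gave 3 genes higher in SoLo (hxk-1, pfk-1.1 and tpi-1) and 5 lower, where 61.1% of all tested genes were called in either direction. With RNA samples 2 to 4 only, a choice made after the data were seen, the counts were also 3 and 5, against 58.3% of genes called. RNA samples 2 to 4 were also added up within each kit, with no block, which left 2 values per kit. In that fit 1 glycolysis gene was called (aldo-2, log2 fold change -2.58, edgeR adjusted p = 0.0274). Of all 14456 genes tested there, 490 were called higher in SoLo and 851 lower. With library totals as the only scaling, which moved the median of all tested genes from 0.01 to 0.56 and the share of calls higher in SoLo from 42.0% to 64.4%, 3 genes were higher (hxk-1, pfk-1.1 and tpi-1) and 3 lower (aldo-1, aldo-2 and gpd-3), and gpi-1 and gpd-2 were not called. Of all 11378 tested genes, 4318 were called higher in SoLo and 2388 lower with library totals. All fold changes given are thus relative to the TMM scaling.

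Gene length ran along with the kit difference over all genes, and the members' lengths cover a wide range. The annotated models have 3 to 7 exons, and exonic length was 1152 to 1591 bases for aldo-1, aldo-2, tpi-1, gpd-2, gpd-3, pgk-1 and enol-1, 2082 for gpi-1, 2101 for hxk-1 and 3561 for pfk-1.1. The lowess trend of all tested genes was at -0.63 for the length of gpd-2 and 0.41 for that of pfk-1.1. With this trend taken out, the log2 fold change of tpi-1 became 1.18 and was called (adjusted p = 0.0192), that of gpd-2 became -0.19 and was not called (adjusted p = 0.494), and that of pfk-1.1 turned to -0.05 (adjusted p = 0.864). For aldo-2 it was -2.29, for aldo-1 -0.78, for gpd-3 -0.79, for gpi-1 -0.77 and for hxk-1 0.92, and these 5 calls held. The median over the 10 genes, each less its trend, was -0.12. In the fit with the trend taken out, the median over all tested genes was 0.18, against 0.01 before. The share of calls higher in SoLo was then 50.8%, against 42.0% before.

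As a share of the library, the 10 genes together made up 0.648% ± 0.148 of all counts in SoLo and 0.694% ± 0.148 in SMARTseq (SD, n = 4 each). The lowest libraries were those of RNA sample 1, with 0.428% in SoLo (exact Clopper-Pearson 95% interval 0.4205% to 0.4353%) and 0.473% in SMARTseq (0.468% to 0.478%), and the highest had 0.743% (0.7344% to 0.7525%) in SoLo and 0.789% (0.7805% to 0.7968%) in SMARTseq. As a share of all counts, SoLo was below SMARTseq in each of the 4 RNA samples. With RNA samples 2 to 4 only, the mean share was 0.7216% in SoLo and 0.7673% in SMARTseq. The genes named rrn- took 6.106% to 9.144% of SoLo counts and 1.254% to 1.725% of SMARTseq counts. With them left out of the total, the mean share over all 4 RNA samples was 0.7024% in SoLo and 0.7052% in SMARTseq. RNA sample 3 then had 0.7972% in SoLo and 0.7629% in SMARTseq. In RNA samples 1, 2 and 4 SoLo stayed below SMARTseq. The difference in the summed share was not tested. Of the reads of the 10 genes, enol-1 took 24.6% ± 1.24 in SoLo and 14.8% ± 1.09 in SMARTseq. For aldo-1 the shares were 22.2% ± 1.14 in SoLo and 35.5% ± 2.19 in SMARTseq, and for tpi-1 9.33% ± 1.35 and 4.04% ± 0.717. Intervals cover counting error only. Each gene had 141 to 18968 reads in a library, for which counting alone gives an error of 8.42% at the lowest and 0.726% at the highest.

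Per length, the 10 genes were among the abundant mRNAs of both kits. A TMM-scaled RPKM scale divides CPM by exonic length in kb. On it, each gene was ranked among the 10640 protein-coding genes that passed the filter on low counts. Each lay between percentiles 80.3 and 99.4 in SoLo and between 85.4 and 99.4 in SMARTseq. The highest level in both kits was that of aldo-1, with 968 ± 253 in SoLo and 2421 ± 623 in SMARTseq (SD, n = 4). The order below it differed. In SoLo it was enol-1 (846 ± 224), gpd-2 (460.3 ± 103), tpi-1 (444 ± 149), gpd-3 (391 ± 55.7), pgk-1 (167 ± 43.8), hxk-1 (164 ± 10.1), gpi-1 (159 ± 44), pfk-1.1 (112 ± 24.4) and aldo-2 (43.2 ± 4.22). In SMARTseq it was gpd-3 (1048 ± 146), gpd-2 (815 ± 178), enol-1 (795 ± 217), tpi-1 (301, libraries 146 to 365), aldo-2 (288 ± 10.6), gpi-1 (268 ± 74.5), pgk-1 (162 ± 33.7), pfk-1.1 (87.3 ± 15.3) and hxk-1 (84.8 ± 9.26).

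Neighbours in this order often overlapped. In SoLo the ranges of neighbours were apart only between gpd-3 and pgk-1 and between pfk-1.1 and aldo-2, and in SMARTseq only between aldo-1 and gpd-3, enol-1 and tpi-1, and pgk-1 and pfk-1.1. Within single libraries aldo-1 was above enol-1 in 4 of 4 SoLo libraries, and gpd-3 above gpd-2 in 4 of 4 SMARTseq libraries. The lowest mean in SoLo was that of aldo-2, which in SMARTseq was below tpi-1 in 3 of 4 libraries and above gpi-1 in 1 of 4. The lowest mean in SMARTseq was that of hxk-1, which was below pfk-1.1 there in 3 of 4 libraries, and in SoLo was below pgk-1 in 3 of 4 and above gpi-1 in 2 of 4.

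**Figure D3:**
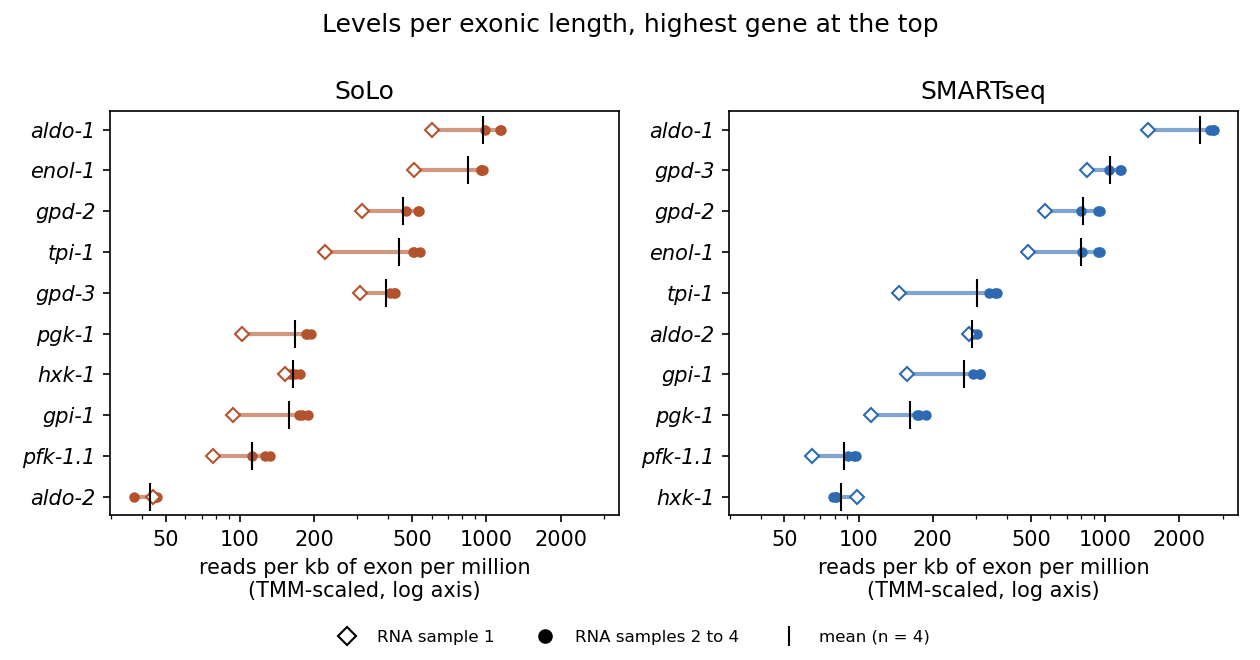
TMM-scaled RPKM (x axis, log scale, CPM divided by exonic length in kb) of the 10 glycolysis genes in SoLo (left) and SMARTseq (right), highest gene at the top, with lines for the range and ticks for the mean of 4 libraries. The aldo-1 mean is 968 in SoLo and 2421 in SMARTseq, while aldo-2 is at 43.2 in SoLo and 288 in SMARTseq.

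Both paralog pairs were weighted differently by the kits, also when only reads of the same library were set against each other. These ratios use the same counts as the fold changes above and are not separate evidence. How often other pairs of genes differ as much was not computed. For single genes, the CPM ranges of the kits did not overlap for 46.2% of all tested genes. The ratio of aldo-1 to aldo-2 reads per kb was 13.6, 26.7, 24.5 and 25.4 in SoLo libraries 1 to 4, against 5.31, 9.2, 9.58 and 9.41 in SMARTseq libraries 1 to 4. The kits did not overlap, and library 1 was lowest in both. On the log2 scale the SoLo mean lay 1.42 above the SMARTseq mean (exact two-sided permutation p = 0.0286, 0.0286 after adjustment over 2 pairs, the smallest that 4 against 4 libraries allow). The ratio of gpd-2 to gpd-3 was 1.01, 1.15, 1.25 and 1.25 in SoLo, against 0.674, 0.81, 0.768 and 0.828 in SMARTseq. Here gpd-2 was above gpd-3 in each SoLo library, though near even in library 1 (1297 and 1285 reads), and below it in each SMARTseq library. The log2 difference between the kits was 0.60 (exact permutation p = 0.0286, 0.0286 after adjustment). With the RNA samples as pairs, the exact sign-flip p was 0.125 for both ratios, the smallest that 4 pairs allow. The uncertain division of gpd-2 and gpd-3 reads applies to this ratio.

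**Figure D4:**
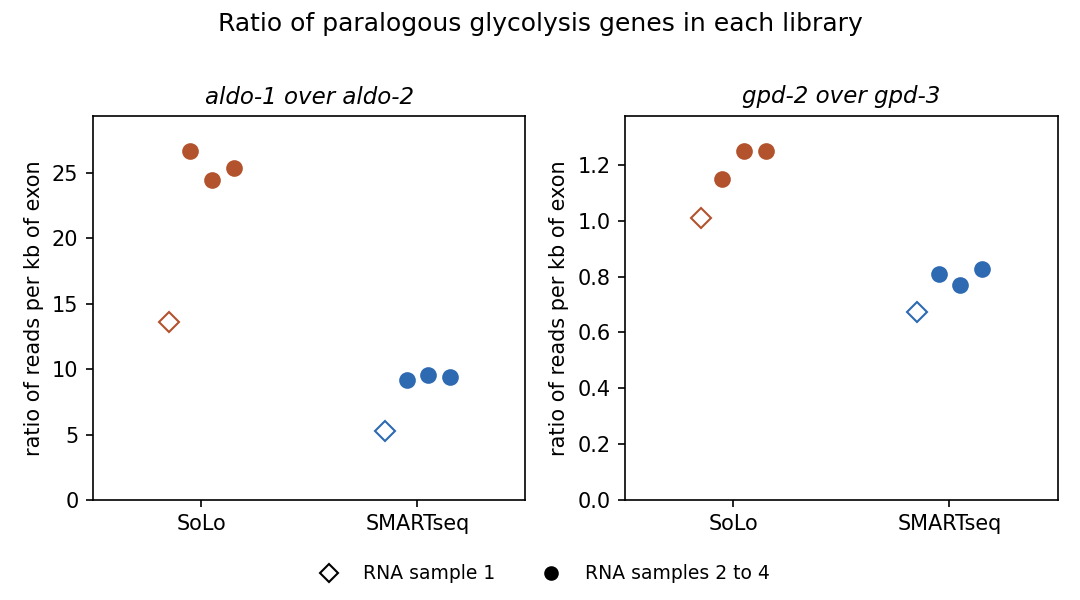
Ratio of reads per kb of exon (y axis, from 0) of aldo-1 over aldo-2 (left panel) and gpd-2 over gpd-3 (right panel), 1 point per library, with SoLo left of SMARTseq and RNA sample 1 as open diamonds. The SoLo ratios span 13.6 to 26.7 for the aldolases, above the SMARTseq ratios of 5.31 to 9.58.

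Across RNA samples most of the genes were lower in RNA sample 1, by similar amounts in both kits. In RNA sample 1, 8 of 10 were below the mean of RNA samples 2 to 4 in both kits, as were 40.5% of all tested genes, and 6 of 10 were lower by at least 1.5-fold in both, as were 15.3%. The 6 were gpi-1, aldo-1, tpi-1, gpd-2, pgk-1 and enol-1. For tpi-1, RNA sample 1 stood at 42.8% of the mean of the others in SoLo and 41.4% in SMARTseq. The percentages for gpi-1 were 51.8% in SoLo and 51.5% in SMARTseq, for enol-1 53.2% and 54.1%, and for aldo-1 55.5% and 54.5%. For pfk-1.1 they were 63.1% and 68.5% and for gpd-3 73.6% and 75.8%. By comparison, aldo-2 in RNA sample 1 lay within the range of the others in both kits (60.4 CPM against 50.3 to 62.8 in SoLo, 381 CPM against 379 to 410.0 in SMARTseq), and hxk-1 at 90.7% and 123%. With 1 RNA sample on a side there is no test, and libraries of 1 RNA sample are not independent. Fewer cells of a type and less RNA per cell cannot be told apart in these bulk samples.

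**Figure D5:**
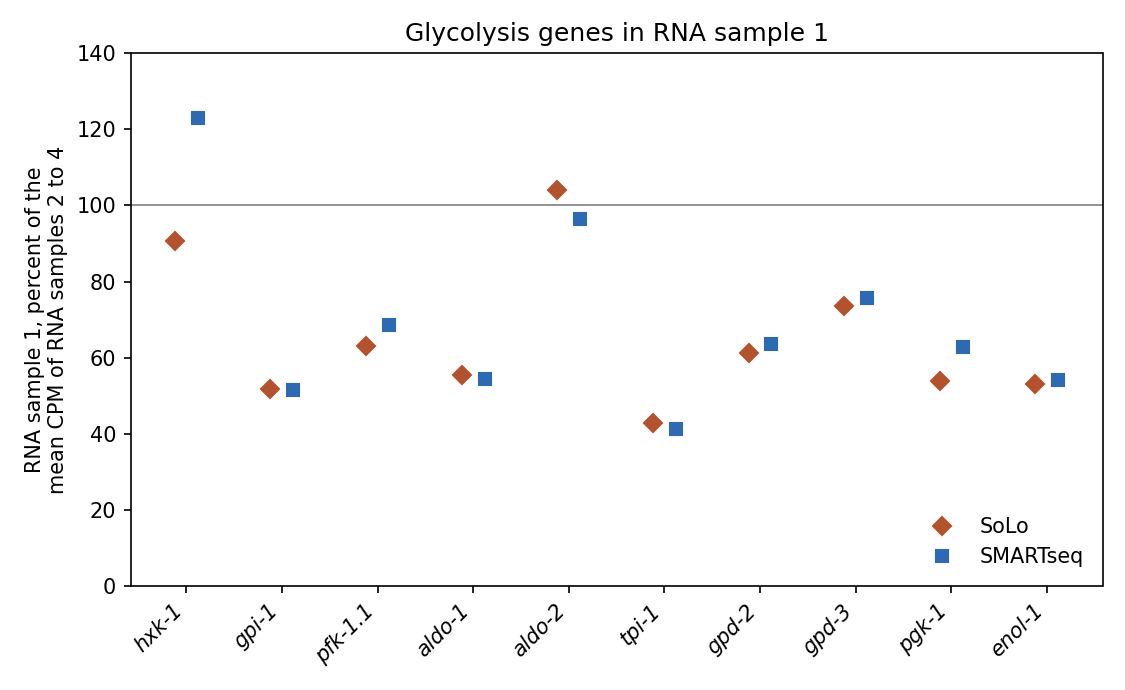
CPM in RNA sample 1 as a percentage of the mean CPM of RNA samples 2 to 4 (y axis, from 0) for each glycolysis gene, with SoLo as diamonds and SMARTseq as squares. The 2 kits give like values for most genes, such as 42.8% and 41.4% for tpi-1, with hxk-1 at 90.7% and 123%.

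Hypodermis and germline markers were also low in RNA sample 1, while the sums of pan-neuronal, pharyngeal muscle and intestine markers were at their highest there in both kits. In RNA sample 1 the hypodermis sum was 109 CPM in SoLo, against 289 to 346 in RNA samples 2 to 4, and 312 CPM in SMARTseq, against 2015 to 2826. Of its 7 tested markers 5 were lower by at least 1.5-fold in both kits, against 15.3% of all tested genes. The same held for 4 of 7 tested germline markers and 1 of 3 tested glia markers. Body wall muscle markers summed to 7433 CPM in RNA sample 1 in SoLo, against 8653 to 9217, and to 13836 CPM in SMARTseq, against 15611 to 18668, with 0 of 12 lower by 1.5-fold in both. Of 12 pan-neuronal markers 0 were, although 5 were below the mean of RNA samples 2 to 4 in both kits. The median log2 ratio of RNA sample 1 to that mean was -0.012 in SoLo and 0.007 in SMARTseq for the pan-neuronal markers. The higher pan-neuronal sum was thus not shared by all markers of the list. The part of these cell types in the levels of the glycolysis genes was not tested. Among RNA samples 2 to 4 alone, the coefficient of variation of a member's CPM was 0.931% to 11.8% in SoLo and 1.57% to 9.63% in SMARTseq. With RNA sample 1 it was 6.14% to 33.6% in SoLo and 3.69% to 34.5% in SMARTseq.

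Among the other genes of glycolysis some were called in each direction. Of 9 on the list, 8 were tested, with 2 called higher and 2 lower in SoLo and a median log2 fold change of -0.48. The phosphoglycerate mutase ipgm-1, the step between pgk-1 and enol-1, had 437 ± 129 CPM in SoLo and 1336 ± 341 in SMARTseq (log2 fold change -1.61 ± 0.28, edgeR adjusted p = 0.00109). Both further hexokinase genes were higher in SoLo like hxk-1, hxk-3 with 58.7 ± 4.38 against 37.4 ± 6.7 CPM (log2 fold change 0.65 ± 0.19, edgeR adjusted p = 0.0163) and hxk-2 with 192 ± 46 against 116 ± 36 CPM (0.73 ± 0.27, edgeR adjusted p = 0.0478). The call of hxk-2 was lost without any 1 of SoLo libraries 2 to 4 or SMARTseq libraries 1 to 3 (0.52 to 0.77, edgeR adjusted p 0.0647 to 0.106).

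At the end of the pathway, pyruvate kinase pyk-1 had 492 ± 31.1 CPM in SoLo and 509 ± 115 in SMARTseq and was not called (log2 fold change -0.05 ± 0.17, edgeR adjusted p = 0.835). Lactate dehydrogenase ldh-1 had 466 ± 134 and 749 ± 218 CPM and was not called (-0.69 ± 0.29, edgeR adjusted p = 0.0768), but was with the RNA samples as blocks (adjusted p = 1.04e-05) and without SMARTseq library 1 (-0.91, adjusted p = 0.00607). The dehydrogenase copies gpd-1 and gpd-4 were low, and the treatment of reads with several alignments is not known for them either. For gpd-4 the level was 7.03 ± 1.17 CPM in SoLo and 13.1 ± 2.24 in SMARTseq (-0.89 ± 0.27, edgeR adjusted p = 0.0214), a call lost without SoLo library 1, 2 or 4 (-0.76 to -0.86, adjusted p 0.0539 to 0.0845). For gpd-1 the log2 fold change was -0.27 ± 0.39 and for pyk-2 -0.73 ± 0.55, neither called, and pyk-2 was at -0.06 without SMARTseq library 1. The second phosphofructokinase gene pfk-1.2 had 5 reads in SoLo and 21 in SMARTseq and was not tested.

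Calls in the other lists of the pathways around glycolysis depended on the fit. Over all 6 lists 63 genes were tested, of which 12 were higher and 10 lower in SoLo, where 20.0% of all tested genes were higher and 27.6% lower. With the RNA samples as blocks 24 were higher and 16 lower, where 61.1% of all genes were called in either direction. Without SoLo library 2, 3 or 4 or SMARTseq library 2, 7 were higher. Of 4 gluconeogenesis genes 1 was lower (2 higher and 2 lower with the blocks, and 1 higher without SMARTseq library 4), the phosphoenolpyruvate carboxykinase pck-2, with 219 ± 15.1 CPM in SoLo and 1186 ± 109.9 in SMARTseq (log2 fold change -2.44 ± 0.13, edgeR adjusted p = 1.01e-06). Of 24 genes of pyruvate dehydrogenase and the TCA cycle 4 were higher and 1 lower, with a median of 0.20. With the blocks 10 were higher and 4 lower, and DESeq2 gave 7 higher. Without any 1 of SoLo libraries 2 to 4 or SMARTseq libraries 2 and 4, 2 were higher, and 3 were lower without SMARTseq library 1 and 2 without SMARTseq library 3. The largest were fumarase fum-1 with -1.95 ± 0.18 (edgeR adjusted p = 1.92e-05) and aconitase aco-2 with 1.57 ± 0.32 (adjusted p = 0.00274).

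Of 7 pentose phosphate genes 1 was higher, Y57G11C.3 with 0.76 ± 0.26 (edgeR adjusted p = 0.0334), and 1 lower, the transaldolase tald-1 with -1.13 ± 0.30 (edgeR adjusted p = 0.0117). Of 12 glycogen and trehalose genes 3 were higher and 4 lower (6 and 4 with the blocks, 5 higher with DESeq2, and 2 lower without SMARTseq library 3). The largest were the trehalases tre-1 with -2.78 ± 0.21 (edgeR adjusted p = 5.7e-06) and tre-4 with -2.72 ± 0.56 (adjusted p = 0.00295), which rests on 14 SoLo and 128 SMARTseq reads. Of 8 genes of glucose entry and regulation 2 were higher and 1 lower (3 and 2 with the blocks, and 4 higher without SMARTseq library 1), led by egl-9, the oxygen-dependent hydroxylase acting on HIF-1, with 1.003 ± 0.14 (edgeR adjusted p = 0.000365), and by pfkb-1.1 with -0.85 ± 0.26 (adjusted p = 0.025). The call of Y57G11C.3 was lost without any 1 of SoLo libraries 2 to 4 or SMARTseq libraries 2 and 4 (0.70 to 0.82, adjusted p 0.0577 to 0.0854). That of pfkb-1.1 was lost without any 1 of SoLo libraries 1, 3 and 4 or SMARTseq libraries 2 and 3 (-0.64 to -0.84, adjusted p 0.0548 to 0.0814).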

How the data were processed

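The deposited table holds raw counts by gene for 8 libraries, unnormalised, with 0 columns belonging to no listed sample. Per the submitters' processing notes the authors used STAR, SAMtools, featureCounts and WBcel235. No source used here gives versions, settings, strand or the handling of multiple alignments, so overlapping genes and near-identical copies are uncertain.

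CPM and levels per length were computed here from TMM-scaled totals. Tests were edgeR's (4.0.16, R 4.3.3) quasi-likelihood F tests on these counts, with TMM, filterByExpr by kit, all 8 libraries and no block, and Benjamini-Hochberg adjustment over 11378 genes, called under 0.05. The script was tested on simulated data. Each standard error is |log2 fold change| divided by √F. Lengths and positions come from Ensembl release 115 for WBcel235. Symbols missing from the table were matched by RefSeq locus tag.

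Same-numbered libraries deviated together from their kit means (correlations 0.278 to 0.722), though SoLo library 4 with SMARTseq library 3 (0.295) and SoLo library 3 with SMARTseq library 4 (0.288) exceeded the lowest of these. The numbers were taken to pair the libraries because the series' design text says that each RNA sample was divided between kits. Members and lists were chosen with earlier results of these data known. All 10 members and the other glycolysis genes are named, and up to 2 called genes with the largest change in each other list. In the closing observations fbp-1, pck-1 and pyc-1 are named outside this rule. DESeq2 1.42.0 and other settings were tried as alternatives.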

Additional observations from a re-analysis of the deposited data

Results flagged for a closer look

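Within each kit the lowest or highest of 4 libraries was set against the others for 26 groups of values (Dixon's test at 95%). In 13 groups 1 library stood apart, each time library 1 of the kit. Chance gives about 1 in 20, and the groups share libraries. In SoLo these were gpi-1 with 195 CPM, tpi-1 with 259 CPM, gpd-3 with 356 CPM, pgk-1 with 144 CPM and enol-1 with 810.4 CPM, all lowest. In SMARTseq gpi-1 with 327 CPM, aldo-1 with 1864 CPM and tpi-1 with 171 CPM were lowest, and hxk-1 with 207 CPM was highest. The summed share of counts was lowest in library 1, with 0.428% in SoLo and 0.473% in SMARTseq. The ratio of aldo-1 to aldo-2 was also lowest there, with 13.6 in SoLo and 5.31 in SMARTseq.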

How the results depend on the processing

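Of the 10 glycolysis genes, aldo-2 kept its direction and call in all 19 alternatives, and hxk-1, aldo-1 and gpd-3 lost the call only where RNA samples 2 to 4 were added up within each kit (log2 fold change 0.96, -1.18 and -1.30, edgeR adjusted p = 0.101, 0.211 and 0.0895). The call of gpi-1 was lost in 11 of 19, with values from -0.81 to -0.22 there, and that of gpd-2 in 3. Members called higher in SoLo numbered 3 with library totals as the only scaling, 3 with the replicate block, 0 with RNA samples 2 to 4 summed and 3 with the block added to that, 2 with the length trend taken out, and, chosen after the data were seen, 3 with RNA samples 2 to 4 only and 3 with the block added to that. They numbered 1 to 3 when single libraries were left out, 3 being without SoLo library 1. Of all tested genes, 4318 of 11378 were higher with library totals. The block gave 3290 of 11378, and the length trend taken out 2832 of 11378. The summed samples gave 490 of 14456, and 3310 of 14456 with the block added. RNA samples 2 to 4 only gave 3005 of 11479, and 3094 of 11479 with the block added. Without SoLo library 1, 2400 of 12232 were higher. Members called lower numbered 3 with library totals, 1 with the samples summed and 4 to 5 with single libraries left out. Of all tested genes 2388 of 11378 were lower with library totals and 851 of 14456 with the samples summed. With single libraries left out 2864 to 3393 were lower, of 11398 to 12412 tested. The signs of pfk-1.1 (-0.0463 with the length trend taken out), pgk-1 (-0.123) and enol-1 (-0.118, both without SMARTseq library 1) turned, none called. With single libraries left out pgk-1 ran to 0.266 and enol-1 to 0.308. So did that of pyk-1, with 0.0191 in DESeq2, 0.0234, 0.0143 and 0.0898 without SoLo library 2, SoLo library 4 and SMARTseq library 1 (range with single libraries left out -0.166 to 0.0898), and 0.0561 and 0.0588 with RNA samples 2 to 4 only, without and with the block.

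In the 6 other pathway lists 12 genes were higher and 10 lower. With the replicate block the counts were 24 and 16, with the samples summed 0 and 2, with RNA samples 2 to 4 only 19 and 16, and with the block added 23 and 16. With single libraries left out 7 to 13 were higher and 7 to 13 lower. Over all genes, library totals gave 4318 higher calls and the summed samples 490 higher and 851 lower, against 2276 and 3139. The aldo-1 to aldo-2 log2 difference of 1.42 had an exact sign-flip p of 0.125 with the replicate block, was 1.21 to 1.65 with single libraries left out and 1.44 with RNA samples 2 to 4 only. That of gpd-2 to gpd-3 was 0.60 with an exact p = 0.125, 0.53 to 0.66 and 0.60. With 3 libraries on a side these designs cannot reach 0.05 (the smallest p is 0.1 for 3 against 3). The cause of these changes was not tested.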

Other observations

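Many genes of the TCA cycle were also low in RNA sample 1. Of 24 tested genes of pyruvate dehydrogenase and the TCA cycle, 16 were lower there by at least 1.5-fold in both kits. Lower by any amount in both kits were 23. Over all tested genes, 15.3% were lower by at least 1.5-fold and 40.5% by any amount. The median log2 ratio of RNA sample 1 to the mean of the others was -0.77 in SoLo and -0.81 in SMARTseq for this list, against -0.06 and -0.05 over all tested genes. Of 4 gluconeogenesis genes, all were below the others there in both kits and 2 by at least 1.5-fold in both. These were fbp-1, which encodes fructose-1,6-bisphosphatase, and pck-1, a phosphoenolpyruvate carboxykinase, chosen after their values were seen, at 27% and 42.4% of the mean of RNA samples 2 to 4 in SoLo and at 20.4% and 39.1% in SMARTseq. The other two were pck-2, at 87.2% in SoLo and 88.7% in SMARTseq, and pyc-1, at 90.5% in SoLo and 43.5% in SMARTseq. Among genes of glycogen and trehalose and of glucose entry and regulation, 0 of 12 and 0 of 8 were lower by 1.5-fold in both kits. Of 7 pentose phosphate genes 0 were lower by 1.5-fold in both kits, and 5 were lower by any amount in both. The median log2 ratio of that list was -0.17 in SoLo and -0.79 in SMARTseq. Of 8 other glycolysis genes 3 were lower by 1.5-fold in both kits, ipgm-1 (49.6% in SoLo, 55.5% in SMARTseq), ldh-1 (50.3%, 49.3%) and hxk-2 (59.6%, 54.4%). Pyruvate kinase pyk-1 was above the others in RNA sample 1, at 112% in SoLo and 149% in SMARTseq. These lists were chosen with earlier results of these data known, and a single RNA sample on a side allows no test.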
